A study of Mus musculus with 4 samples.

Results

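The urea cycle and the routes of amino acid breakdown were examined in the liver of aP2-SREBP-1c mice through 38 genes, chosen by name for their place in these routes. They comprise 6 genes of the urea cycle, 4 of histidine breakdown, 9 of tyrosine and tryptophan breakdown (here the aromatic route), 8 of branched-chain amino acid and propionate breakdown, and 11 of glutamate handling, transamination and other steps. Each gene was read from the probe set, the group of array probes that the platform annotation assigns to exactly 1 gene symbol. Of the 38 genes, 34 were measured in this way, among 19938 genes on the array. Ass1 was covered by 2 probe sets that were each annotated with another symbol as well, and Gls2, Sdsl and Mut were not named by any probe set used here.

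Hepatic RNA of 4 male mice was hybridized, 150 ng per mouse, to 1 Mouse Gene 1.0 ST array each. All 4 mice carried the transgene TgN(aP2-HA-SREBP-1cNT) on the C57Bl6 background. The aP2 promoter directs human SREBP-1c, in its transcriptionally active form, to adipocytes and not to hepatocytes, so that the fatty liver of this lipodystrophic model arises beside a disturbed adipose tissue. From 6 weeks of age the mice had free access to chow in which 36% was protein, 53% carbohydrate and 11% fat, and they were killed at 24 weeks of age at 7 am. The study's methods give a wider age range, and its C57Bl6 and alb-SREBP-1c livers were not analysed here. The 4 mice therefore form 1 group without controls, so the levels in each mouse and the spread among the mice are given and no p-values. Nothing in the labels names the litter of a mouse, and the spread may be partly technical. All levels are log2 expression values, and a difference of 1 on this scale is a doubling. Probe sets differ in how brightly they hybridize, and levels of different genes were not ranked against each other.

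Amino acids that are not used for protein synthesis lose their nitrogen and are burned or converted to glucose and lipids. In the liver the nitrogen is released mainly by transaminases and glutamate dehydrogenase, and the urea cycle joins ammonia and aspartate nitrogen into urea. The cycle begins in the mitochondrial matrix with carbamoyl phosphate and ends in the cytosol with the cleavage of arginine. Histidine, tyrosine and tryptophan are broken down largely by enzymes that are abundant in hepatocytes, whereas branched-chain amino acids are mostly transaminated in other tissues and the resulting keto acids are oxidized in mitochondria by a dehydrogenase complex. Many of these steps are stronger in periportal hepatocytes. Glutamine synthetase, which traps ammonia that escapes the cycle, is restricted to the cells around the central vein.

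Every measured member was expressed. The background limit of an array was the 95th percentile of the probe sets for olfactory and vomeronasal receptors, and it lay at 5.52, 5.35, 5.34 and 5.33 in mice 1 to 4. Of all genes, 61.5% exceeded it on all 4 arrays, as did 34 of the 34 measured members. When the genes above background were divided into 10 classes of mean expression, 24 members fell into the highest class, 9 into the next and 1 into the one below that. The hepatocyte markers were all present, with 9 of 9 measured genes above background and Alb at 14.29, 14.33, 14.37 and 14.31.

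Differences between the mice were small. Among all genes above background, 12.9% had a range of over 1.5-fold from the lowest to the highest mouse, and among the members 0 of 34 did. The widest range was that of Bckdhb with 1.45-fold and the narrowest that of Haao with 1.06-fold. The median SD between mice was 0.12 over the members, compared with 0.15 over all genes above background and 0.15 over the highest expression class. By route, the median SD was 0.12 for the urea cycle, 0.071 for histidine, 0.088 for the aromatic route, 0.15 for the branched-chain route and 0.13 for glutamate and other steps. This order of the routes rested on the scaling, since after quantile normalization histidine had the largest median SD with 0.14 and the branched-chain route the smallest with 0.072. Without mouse 1, the median SD over the members was 0.065, and 328 of all genes exceeded 1.5-fold in place of 1584. In whole liver RNA, fewer cells of a type and less RNA per cell cannot be told apart, which applies to all differences given here.

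**Figure D1:**
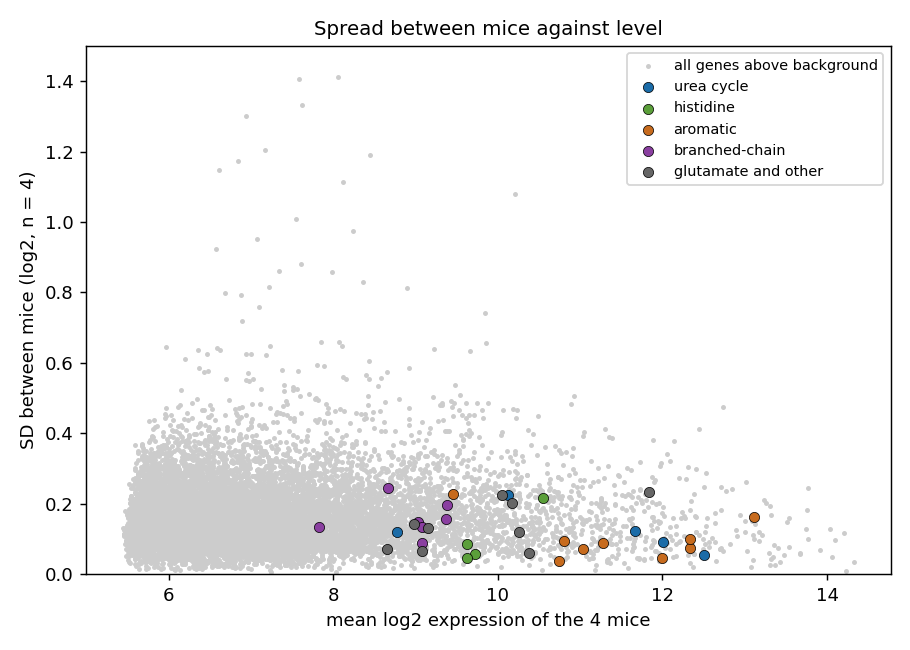
SD between the 4 mice (vertical axis, log2) against the mean log2 expression of each gene (horizontal axis). Grey points are the 12265 genes above background and coloured points are the 34 members by route; the members lie between SDs of 0.038 and 0.24, within the grey cloud.

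The arrays were not equal in scale, and the values of mouse 1 were compressed across the expression classes. In the lowest expression class its median difference from the mean of the others was 0.13, whereas it was -0.23 in the highest class, against 0.069, 0.13 and 0.035 in mice 2 to 4. Highly expressed genes therefore tended to be lowest in mouse 1, which was the case for 46.1% of all genes above background and for 78.1% of the highest class. Of the members, 23 of 34 were lowest in mouse 1. This count was 11 after quantile normalization of the 4 arrays, where the share of the highest class was 43.6%. It was 8 after each array was centred within classes of mean expression, where the share was 35.2%. The hepatocyte markers had a median difference in mouse 1 of -0.087 as deposited and 0.12 after this centring. The shift in mouse 1 was thus not the same for all highly expressed genes. The order of the mice was therefore read within a mouse, by comparing one route with another.

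Members fell into different orders across the mice. Asl, Arg1, Hal, Uroc1, Ftcd, Hgd and Got1, 7 of 34 members, had their 2 highest values in mice 1 and 4. This order was found for 15.3% of all genes above background and for 11.6% of the highest class. Nags, Tat, Hpd, Gpt2, Glud1, Kynu, Bckdhb, Ivd, Mccc1, Pcca and Aass, 11 of 34 members, had their 2 highest values in mice 2 and 3, compared with 29.0% of all genes and 51.7% of the highest class. Another 13 members were highest in mice 3 and 4, beside 22.1% of all genes and 26.8% of the highest class. The remaining 3 were highest in mice 2 and 4, beside 11.3% and 7.34%. After quantile normalization 16 members were highest in mice 1 and 4 (27.0% of the highest class), among them the 7 named, and 7 were highest in mice 2 and 3 (41.2%). The share of members in the first of these orders lay above the highest class, and in the other below it, under the deposited values, quantile normalization and centring within expression class.

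**Figure D2:**
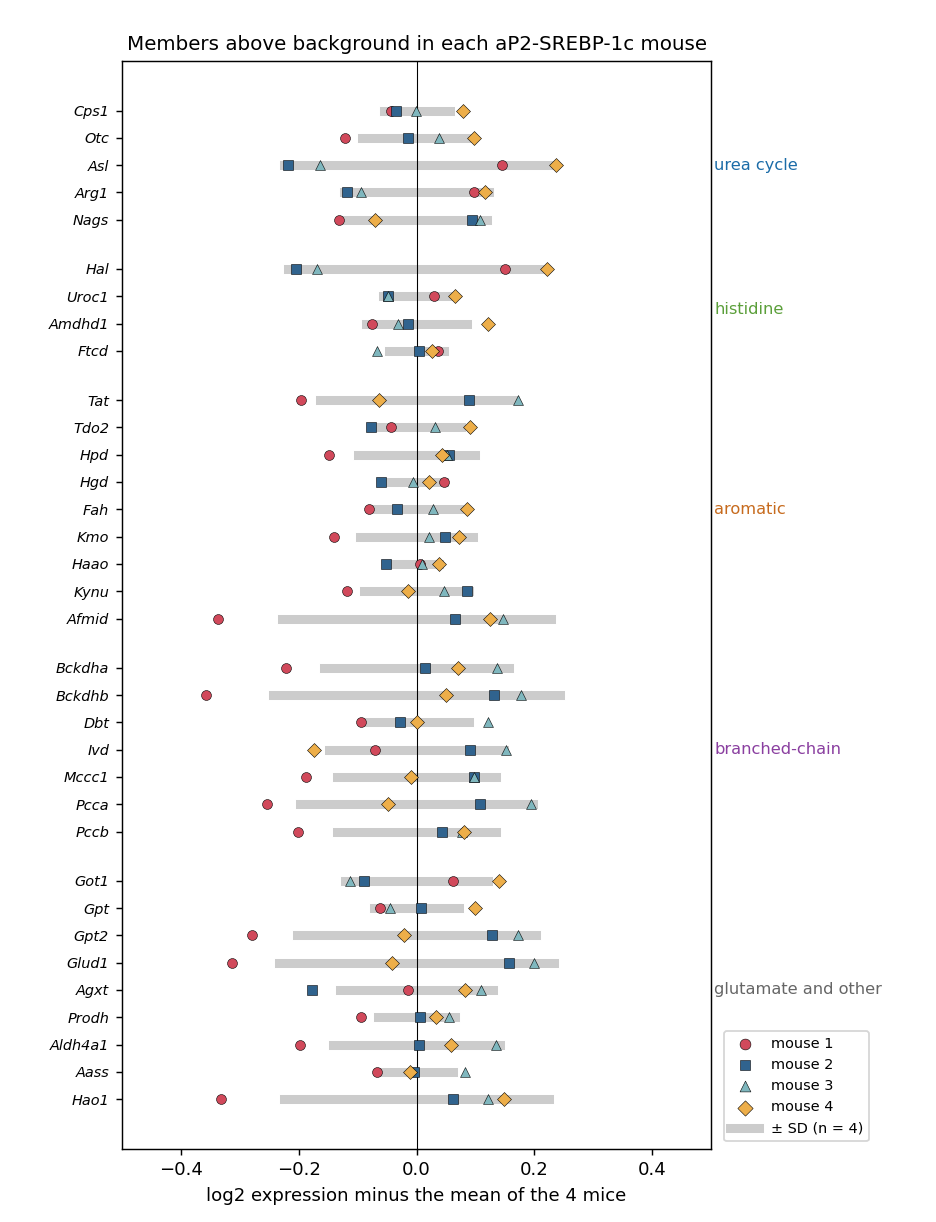
Log2 expression of each of the 34 members in each mouse, minus the mean of the 4 mice (horizontal axis), grouped by route. Symbols are mice and grey bars are ± SD (n = 4); Asl, Arg1 and Hal show mice 1 and 4 on the right and mice 2 and 3 on the left, whereas mouse 1 (red) lies far to the left in Bckdhb, Afmid, Hao1 and Glud1.

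The promoters of 4 members are shown because these genes stand for the opposite orders, Hal and Got1 with mice 1 and 4 highest and Glud1 and Bckdhb with mice 2 and 3 highest. The sequences are from RefSeq (GRCm38.p6), cover the 250 bases before the transcription start and are written 5′ to 3′ on the strand of the gene. Capitals mark a C/EBP core or a TATA box on either strand. Hal lies on chromosome 10 (chr10:93488518-93488767, plus strand), Got1 on chromosome 19 (chr19:43524606-43524855, minus strand), Glud1 on chromosome 14 (chr14:34310477-34310726, plus strand) and Bckdhb on chromosome 9 (chr9:83924887-83925136, plus strand).
Hal: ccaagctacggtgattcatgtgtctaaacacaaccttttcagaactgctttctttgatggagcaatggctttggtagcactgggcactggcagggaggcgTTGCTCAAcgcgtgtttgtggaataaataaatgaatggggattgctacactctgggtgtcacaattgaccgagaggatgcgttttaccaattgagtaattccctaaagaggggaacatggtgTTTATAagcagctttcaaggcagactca
Got1: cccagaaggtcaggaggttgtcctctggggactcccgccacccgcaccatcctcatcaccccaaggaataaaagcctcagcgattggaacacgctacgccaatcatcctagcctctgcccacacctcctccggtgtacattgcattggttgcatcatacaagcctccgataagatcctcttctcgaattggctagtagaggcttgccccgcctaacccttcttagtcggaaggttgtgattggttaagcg
Glud1: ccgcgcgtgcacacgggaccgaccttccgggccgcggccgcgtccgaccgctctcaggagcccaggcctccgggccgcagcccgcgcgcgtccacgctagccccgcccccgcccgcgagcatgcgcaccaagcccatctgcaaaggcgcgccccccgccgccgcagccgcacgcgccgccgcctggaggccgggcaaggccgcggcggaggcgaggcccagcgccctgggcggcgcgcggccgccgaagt
Bckdhb: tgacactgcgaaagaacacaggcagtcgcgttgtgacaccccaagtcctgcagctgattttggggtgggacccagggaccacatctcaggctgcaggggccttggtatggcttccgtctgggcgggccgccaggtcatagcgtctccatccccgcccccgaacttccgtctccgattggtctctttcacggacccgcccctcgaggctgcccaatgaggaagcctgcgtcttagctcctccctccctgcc

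Counted over the 300-base window that also holds the 50 bases after the start, GC content was 47.7% for Hal with 7 CpG dinucleotides, 57.3% for Got1 with 18, 81% for Glud1 with 51 and 65% for Bckdhb with 20. A second Bckdhb window at another start had 37.3% GC and 2 CpG dinucleotides. The median was 55.7% GC and 10 CpG dinucleotides over 31 windows of 29 members, compared with 52.7% and 7 over 32851 windows of 27025 genes. Member windows were thus slightly richer in GC and CpG than the average window. The Hal promoter held a C/EBP core (TTGCNNAA, both strands) that begins 150 bases before the start, and a TATA box (TATAAA) on the reverse strand that begins 28 bases before it. A C/EBP core was found in 4 of 31 member windows (Aass, Hal, Hao1 and Hgd) and in 10.8% of all windows. A TATA box was found in 4 of 31 (Ftcd, Hal, Hgd and Tdo2) and in 13.6% of all windows. Hal and Hgd held both motifs. The cyclic AMP response element TGACGTCA was found in 0 of 31 and in 1.79% of all windows. The core ATCAAT of Onecut factors was found in 3 of 31 (Aass, Afmid and Agxt) and in 7.54% of all windows. The matches in the Hal promoter did not overlap, and a match is a description of letters only.

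Within the urea cycle, the cytosolic end and the mitochondrial entry showed different orders of the mice as deposited. Asl, which splits argininosuccinate into arginine and fumarate (probe set 10534120), was measured at 10.27, 9.90, 9.96 and 10.36 in mice 1 to 4, or 10.12 ± 0.23 (SD, n = 4). Arg1, the arginase that releases urea (probe set 10368343), was measured at 11.76, 11.55, 11.57 and 11.78, or 11.67 ± 0.12. In both genes mice 1 and 4 lay above mice 2 and 3, with a gap of 0.31 for Asl and 0.19 for Arg1 between the lower of the first pair and the higher of the other. The range was 1.37-fold for Asl and 1.18-fold for Arg1. Asl became the 1 member over 1.5-fold when the arrays were centred within expression classes, with 1.52-fold.

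Cps1, the carbamoyl phosphate synthetase that commits ammonia to the cycle (probe set 10347117), varied little, with 12.47, 12.47, 12.51 and 12.59 in mice 1 to 4 and an SD of 0.056. Otc, the next enzyme, which forms citrulline in the mitochondrion (probe set 10598612), was measured at 11.88, 11.99, 12.04 and 12.10 with an SD of 0.093. Mouse 4 was the highest in both, which held after quantile normalization, whereas mouse 1 was the highest in Cps1 after centring within expression classes. Nags makes N-acetylglutamate, the activator that Cps1 requires (probe set 10381528), and had values of 8.64, 8.87, 8.88 and 8.70 with an SD of 0.12. In Nags mice 2 and 3 lay above mice 1 and 4, the opposite of Asl and Arg1. After quantile normalization Cps1 and Otc joined Asl and Arg1 with their 2 highest values in mice 1 and 4, and Nags kept mice 2 and 3 highest. After centring within expression classes Nags was highest in mice 1 and 2, so that its order opposite to Asl and Arg1 was lost.

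The histidine route repeated the order of Asl in its entry enzyme. Hal, the histidine ammonia-lyase that commits histidine to breakdown (probe set 10365769), was measured at 10.69, 10.34, 10.38 and 10.77 in mice 1 to 4, or 10.54 ± 0.22 (SD, n = 4), a 1.34-fold range. Its values in mice 1 and 4 exceeded those in mice 2 and 3 by at least 0.32. Uroc1, the urocanate hydratase, showed the same pair of mice highest, with 9.75, 9.67, 9.67 and 9.79. Amdhd1, which opens the imidazolone ring, was highest in mouse 4, with 9.55, 9.61, 9.60 and 9.75. Ftcd passes the formimino group of histidine on to folate, and its values of 9.67, 9.63, 9.56 and 9.66 differed by 1.07-fold. The SDs of Uroc1, Amdhd1 and Ftcd were 0.057, 0.085 and 0.047, and thus smaller than that of Hal. After quantile normalization the range was 1.43-fold for Hal, 1.25-fold for Uroc1, 1.15-fold for Amdhd1 and 1.28-fold for Ftcd.

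Tyrosine breakdown was measured from its entry enzyme to its last step. Tat, the tyrosine aminotransferase induced by glucocorticoids and glucagon (probe set 10575349), was measured at 12.91, 13.20, 13.28 and 13.04, or 13.11 ± 0.16 (SD, n = 4). Mice 2 and 3 were the highest, and they remained so after quantile normalization and after centring within expression classes. The following dioxygenase Hpd had values of 12.19, 12.39, 12.39 and 12.38, with mouse 1 apart from the other mice, which lay within 0.011 of each other. Hgd, the homogentisate dioxygenase, had values of 12.04, 11.93, 11.98 and 12.01 with an SD of 0.046. Fah, which completes the route to fumarate and acetoacetate, had values of 10.95, 11.00, 11.06 and 11.12 with an SD of 0.073. The range was 1.29-fold for Tat and 1.15-fold, 1.08-fold and 1.12-fold for Hpd, Hgd and Fah, but after quantile normalization Hgd with 1.22-fold had a wider range than Tat with 1.18-fold.

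Tryptophan is broken down through the kynurenine route. Tdo2, the dioxygenase that opens the route in liver, had values of 12.29, 12.26, 12.36 and 12.42 with an SD of 0.075. Afmid, the formamidase that releases kynurenine (probe set 10382985), had the widest range of the aromatic route, 1.40-fold, with 9.12, 9.52, 9.60 and 9.58. Mouse 1 was low and the other 3 mice lay within 0.081. The branch enzymes Kmo, a hydroxylase, and Kynu, a hydrolase of kynurenine and hydroxykynurenine, were also lowest in mouse 1 as deposited, but not after quantile normalization. Kmo had values of 10.66, 10.85, 10.82 and 10.87, and Kynu of 11.16, 11.36, 11.32 and 11.26. Haao, which forms the precursor of quinolinate, had the smallest SD of all members, 0.038, with 10.75, 10.70, 10.76 and 10.79. After quantile normalization its range was 1.16-fold in place of 1.06-fold.

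In the branched-chain route, 6 of 7 measured members were lowest in mouse 1, beside 46.1% of all genes and 78.1% of the highest class. The 2 highest values were those of mice 2 and 3 in 4 of 7, beside 29.0% and 51.7%. Of the 7, only Bckdha and Pcca belonged to the highest class. After quantile normalization these counts were 5 and 3, beside 36.1% and 26.1% of all genes and 43.6% and 41.2% of that class. After centring within expression classes they were 3 and 3, beside 31.9% and 23.9% of all genes and 35.2% and 35.1% of that class. Bckdhb, the E1 beta subunit of the branched-chain keto acid dehydrogenase (probe set 10587534), had the widest range of all members as deposited, with 8.31, 8.80, 8.85 and 8.72 in mice 1 to 4, or 8.67 ± 0.24 (SD, n = 4). Its partner subunit Bckdha had values of 9.15, 9.39, 9.51 and 9.44, and the E2 subunit Dbt of 8.98, 9.05, 9.19 and 9.07. As deposited, mouse 1 was the lowest and mouse 3 the highest in these 3 subunits. For Dbt this turned, with mouse 1 the highest after quantile normalization and after centring within expression classes, and Bckdha and Bckdhb kept mouse 1 as the lowest. The range was 1.45-fold for Bckdhb, 1.28-fold for Bckdha and 1.16-fold for Dbt. After quantile normalization the range of Bckdhb was 1.27-fold and that of Asl, then the widest of the members, 1.44-fold.

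Below the dehydrogenase, Ivd oxidizes isovaleryl-CoA from leucine and was the exception, with 8.97, 9.13, 9.19 and 8.86 and its lowest value in mouse 4. Mccc1, the biotin-bearing subunit of methylcrotonyl-CoA carboxylase, had values of 7.65, 7.93, 7.93 and 7.82. The carboxylase that takes up propionyl-CoA from valine and isoleucine has a biotin-bearing subunit, Pcca, and a partner, Pccb. Pcca (probe set 10417183) was measured at 9.13, 9.49, 9.58 and 9.33, and Pccb at 8.87, 9.12, 9.15 and 9.16. Both were lowest in mouse 1 as deposited and after quantile normalization. As deposited, mouse 4 lay near mice 2 and 3 for Pccb and midway for Pcca. After quantile normalization Pcca was nearly equal in mice 1 and 4, with 9.287 and 9.289. After centring within expression classes mouse 4 was the lowest in Pcca, with 9.291 against 9.317 in mouse 1, and Pccb kept mouse 1 as the lowest. The SDs of Ivd, Mccc1, Pcca and Pccb were 0.15, 0.13, 0.20 and 0.14.

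**Figure D3:**
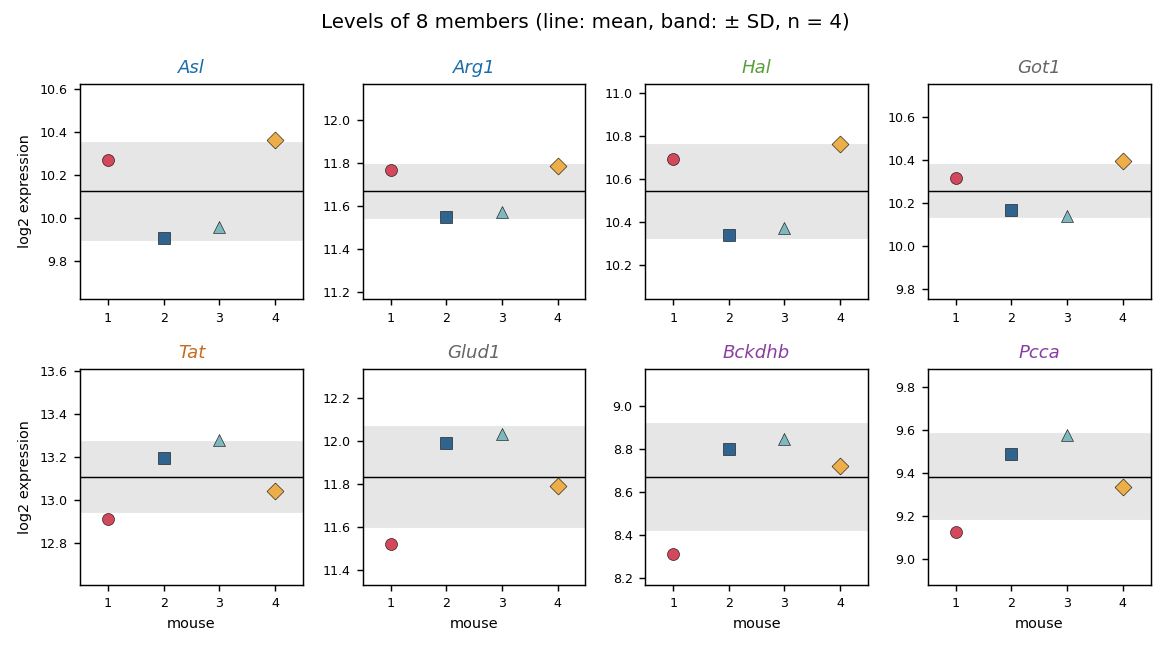
Log2 expression of 8 members in mice 1 to 4, with the mean (line) and ± SD (band, n = 4) and the same height of scale in each panel. In the upper panels (Asl, Arg1, Hal, Got1) mice 1 and 4 lie above mice 2 and 3, and in the lower panels (Tat, Glud1, Bckdhb, Pcca) mice 2 and 3 lie above mice 1 and 4.

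Among the enzymes that move nitrogen, the mitochondrial and the cytosolic forms differed in their order. Glud1, the mitochondrial glutamate dehydrogenase that releases ammonia (probe set 10414093), was measured at 11.52, 11.99, 12.03 and 11.79, or 11.83 ± 0.23 (SD, n = 4). Gpt2, the mitochondrial alanine aminotransferase (probe set 10573626), followed the same order with 9.89, 10.29, 10.34 and 10.15, or 10.17 ± 0.20. Both kept mice 2 and 3 as the highest and mouse 1 as the lowest after quantile normalization and after centring within expression classes. Got1, the cytosolic aspartate aminotransferase (probe set 10467842), was instead highest in mice 1 and 4, with 10.32, 10.17, 10.14 and 10.39, or 10.25 ± 0.12. Gpt, the cytosolic alanine aminotransferase, had values of 8.59, 8.66, 8.60 and 8.75 and was highest in mouse 4, or in mouse 1 after quantile normalization.

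The remaining members act on proline, lysine and glyoxylate. Prodh, the proline dehydrogenase, had values of 8.99, 9.09, 9.14 and 9.12, and Aldh4a1, which oxidizes its product to glutamate, of 8.78, 8.98, 9.11 and 9.04. Aass, the bifunctional enzyme that opens lysine breakdown, varied little, with 10.32, 10.38, 10.47 and 10.37. As deposited, these 3 were lowest in mouse 1 and highest in mouse 3. After quantile normalization and after centring within expression classes mouse 1 was the highest in Prodh and Aass, and Aldh4a1 kept its order. Hao1, the peroxisomal glycolate oxidase that supplies glyoxylate, had values of 9.72, 10.12, 10.18 and 10.20, a 1.40-fold range with mouse 1 the lowest. Agxt, which transaminates glyoxylate with alanine, was in contrast lowest in mouse 2, with 9.14, 8.98, 9.27 and 9.24.

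The routes were then compared within each mouse. For every member the deviation from its mean over the 4 mice was taken. The median of one route was subtracted from that of another, so that an equal shift of a whole array cancels. A shift that depends on level, as in mouse 1, does not cancel between routes of unlike level. Mean levels of the members ran from 8.77 to 12.51 in the urea cycle. They ran from 9.63 to 10.54 in the histidine route and from 7.83 to 9.38 in the branched-chain route. The urea cycle exceeded the branched-chain route by 0.16 in mouse 1 and 0.097 in mouse 4, and the difference was -0.13 in mouse 2 and -0.14 in mouse 3. The histidine route exceeded the branched-chain route by 0.23 in mouse 1 and 0.093 in mouse 4, with differences of -0.12 in mouse 2 and -0.19 in mouse 3. After quantile normalization these values were 0.14, -0.16, -0.13 and 0.14 for the urea cycle and 0.25, -0.13, -0.20 and 0.097 for histidine in mice 1 to 4. Both contrasts kept their sign in every mouse under 56 alternative values. Some of these values could not differ, since median-centring of the arrays cancels within a mouse and no member had more than 1 probe set to average. The deviations of a gene also cancel over the 4 mice, so the signs in the mice are not independent. Both contrasts are medians over 4 to 7 genes in 4 mice, and no test could be made in 1 group.

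The aromatic route lay between these routes, with differences from the branched-chain route of 0.084, -0.043, -0.11 and 0.042 in mice 1 to 4. The urea cycle and the histidine route differed by -0.076, -0.0039, 0.057 and 0.0036. Against glutamate and other steps, the urea cycle differed by 0.051, -0.041, -0.11 and 0.039. Among the 10 pairs of routes, as deposited, the largest distance was that of histidine from the branched-chain route in mouse 1, which corresponds to 1.18-fold.

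As differences of each mouse from the mean of the other mice, the routes depended on the scaling of the arrays. The branched-chain route gave medians of -0.27, 0.12, 0.18 and 0.00082 in mice 1 to 4, near those of the highest expression class. The urea cycle gave -0.057, -0.047, -0.00087 and 0.13, and histidine 0.044, -0.042, -0.077 and 0.12. After quantile normalization the urea cycle gave 0.10, -0.12, -0.11 and 0.13 and histidine 0.25, -0.081, -0.20 and 0.072, whereas the branched-chain route gave -0.084, 0.095, 0.066 and -0.055. The sign of the urea cycle in mouse 1 thus turned with the scaling, while its position above the branched-chain route did not.

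**Figure D4:**
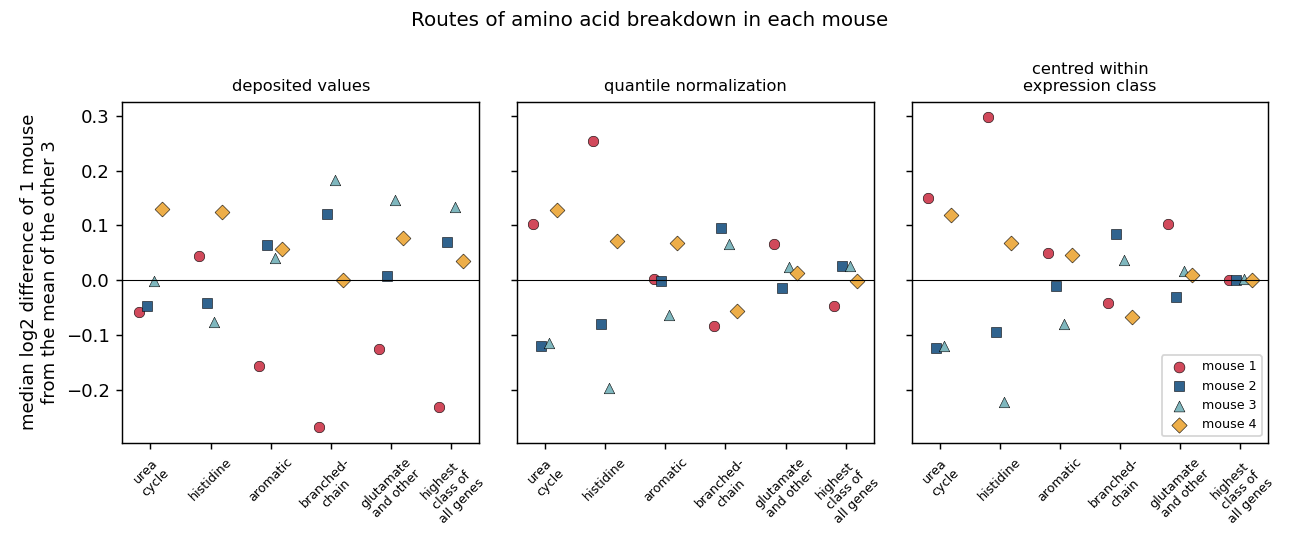
Median log2 difference of each mouse from the mean of the other 3 (vertical axis) for the 5 routes and for the highest of 10 expression classes of all genes, under 3 scalings of the arrays. Symbols are mice; in each panel the urea cycle and histidine points of mice 1 and 4 lie above their branched-chain points, and those of mice 2 and 3 lie below them.

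Transcripts of other cells moved with the same mice. Markers of pancreatic acinar cells (14 of 17 measured, 12 above background, all 12 over 1.5-fold) had median differences of 1.27, -1.45, -1.04 and 1.09 in mice 1 to 4 and a summed level, on the log2 scale, of 11.95, 9.81, 10.14 and 11.68. Markers of pericentral hepatocytes (10 of 11 measured genes above background, with Axin2 not) had differences of -0.57, 0.33, 0.28 and -0.11 and summed levels of 13.86, 14.40, 14.41 and 14.14. These lists thus ran in opposite directions, the first high in mice 1 and 4 and the other in mice 2 and 3. Markers of periportal hepatocytes, where many of the members are known to be stronger, had differences of -0.12, -0.15, 0.13 and 0.06 and summed levels of 14.08, 14.29, 14.29 and 14.21. Stellate cell markers differed by -0.34, 0.35, 0.15 and -0.14, with summed levels of 11.38, 12.15, 12.18 and 11.80. Acinar transcripts were thus highest in the mice in which Asl, Arg1 and Hal were highest, and pericentral transcripts highest in those in which Glud1 and Bckdhb were highest. Median differences of cholangiocyte, macrophage, endothelial and lymphocyte markers lay between -0.22 and 0.16. The part of any of these transcripts in the order of the members was not tested.

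When members were sorted by the compartment in which their proteins are known to act, 15 were mitochondrial, 16 cytosolic, and Kmo, Agxt and Hao1 were left aside. This sorting was made by hand after the values had been seen and is given as a description. The 7 members with their 2 highest values in mice 1 and 4 were all cytosolic (7 of 16, and 0 of 15 mitochondrial), an order found for 15.3% of all genes and 11.6% of the highest expression class. After quantile normalization 12 cytosolic and 3 mitochondrial members (Cps1, Otc and Prodh) had it, beside 27.0% of that class, and after centring within expression classes 13 and 3, beside 34.1%. Of the members with their 2 highest values in mice 2 and 3, 8 of the 15 were mitochondrial and 3 of the 16, Tat, Hpd and Kynu, cytosolic. This order was found for 29.0% of all genes and 51.7% of the highest class, so the mitochondrial share lay near that class. The counts were 6 and 1 after quantile normalization, beside 41.2% of that class, and 5 and 1 after centring within expression classes, beside 35.1%. The lowest value was that of mouse 1 in 14 of 15 mitochondrial members, with Ivd as the exception, and in 7 of 16 cytosolic members, beside 46.1% of all genes and 78.1% of the highest class. After quantile normalization these counts were 8 of 15 and 2 of 16, beside 43.6% of that class.

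Median differences of the mitochondrial members were -0.25, 0.06, 0.16 and 0.00082 in mice 1 to 4, and those of the cytosolic members -0.025, -0.054, -0.025 and 0.12. The mitochondrial medians lay near those of the highest expression class in mice 1 to 3, and the cytosolic medians lay above that class in mice 1 and 4 and below it in mice 2 and 3. Without the branched-chain route, the other 8 mitochondrial members had differences of -0.17, 0.01, 0.13 and 0.02. Among pathway genes outside the 38, 29 mitochondrial genes had differences of -0.34, 0.09, 0.21 and 0.04 and 18 cytosolic genes of -0.13, 0.03, 0.04 and 0.07.

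**Figure D5:**
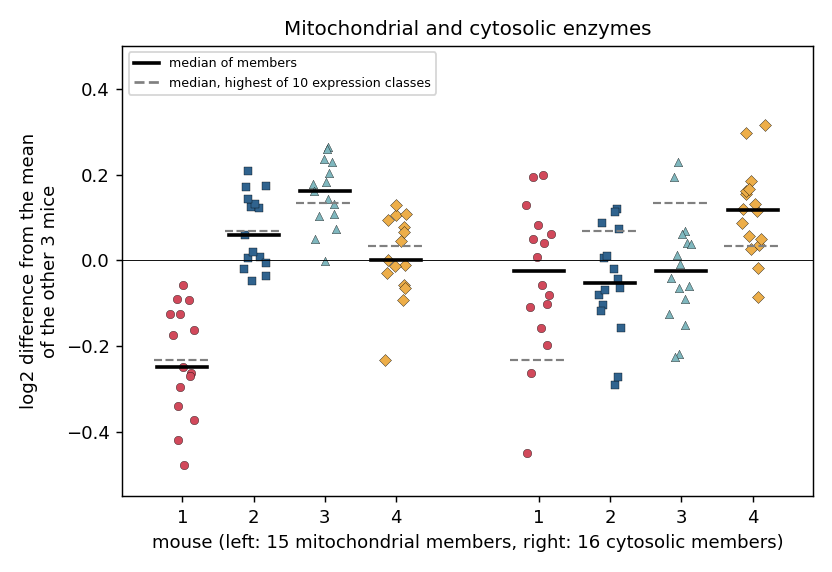
Log2 difference of each mouse from the mean of the other 3 (vertical axis) for 15 mitochondrial members (left) and 16 cytosolic members (right), 1 point per member and mouse. Solid lines are medians of the members and dashed lines the median of the highest expression class. In mouse 1 the mitochondrial median of -0.25 lies near the dashed line at -0.23, and the cytosolic median lies at -0.025.

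The rest of the pathway was covered by 62 further genes, of which 55 were measured and 51 were above background. Slc25a2, Arg2, Ido1 and Bcat1 were not above background on all 4 arrays. A range of more than 1.5-fold was found for 9 of the 51, beside 12.9% of all genes above background. The list was chosen with earlier results of these data known, so its share is a description only. The smallest SDs were those of Qprt, which makes a precursor of NAD from quinolinate, with 0.042, and of Bckdk, the kinase that inactivates the branched-chain dehydrogenase, with 0.046.

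Of the 9 genes, 4 had their 2 highest values in mice 1 and 4. The share was 15.3% over all genes above background, whatever their range. It was not counted over the genes with a range above 1.5-fold, so the 2 shares are not alike. Acmsd diverts the kynurenine route away from NAD synthesis and had values of 7.79, 6.56, 6.79 and 7.77 in mice 1 to 4, a 2.35-fold range. Asns, the asparagine synthetase induced when amino acids are short, had values of 7.40, 6.42, 6.60 and 7.09. Both were lowest in mouse 2. Etnppl, a phospholyase of phosphoethanolamine, had values of 10.67, 9.75, 9.81 and 10.50. Kyat3, a kynurenine aminotransferase, had values of 9.72, 8.90, 9.13 and 9.68. These 4 genes thus had the same pair of mice highest as Asl and Hal, but with mouse 1 above mouse 4. Pancreatic acinar transcripts were highest in the same pair, and their part in these 4 genes was not tested. Their ranges, from 1.76-fold to 2.35-fold, exceed those of the members because the genes were picked for a range over 1.5-fold.

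The other 5 genes were lowest in mouse 1, beside 46.1% of all genes above background, again whatever their range. Glul, the pericentral glutamine synthetase, had values of 10.49, 11.30, 11.38 and 11.02, a 1.86-fold range. Mccc2, the partner subunit of Mccc1, had values of 7.37, 8.23, 8.20 and 7.84, a 1.81-fold range. The same 2 mice were highest in both carboxylase subunits, with a range of 1.22-fold for Mccc1. Hibch, which acts in valine breakdown, had values of 8.19, 8.66, 8.99 and 8.82, and Auh, which acts in leucine breakdown, of 7.08, 7.44, 7.79 and 7.58. Agxt2, a mitochondrial aminotransferase of glyoxylate, had values of 9.42, 10.14, 10.18 and 9.93.

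Of 16 regulators of these routes, 15 were measured and above background, and 4 differed by more than 1.5-fold, beside 12.9% of all genes above background. As the regulators too were listed with earlier results of these data known, their share is a description only. Onecut1, a transcription factor, had the widest range, 4.12-fold, with 9.20, 7.16, 7.71 and 8.92. Cebpa, which is required for the expression of urea cycle genes in liver, followed the same order with 9.91, 9.18, 9.31 and 9.72. Both were thus highest in mice 1 and 4, the mice in which pancreatic acinar transcripts were highest. The part of cells other than hepatocytes in these values was not tested. Ppara, which represses several enzymes of amino acid breakdown, was instead highest in mice 2 and 3, with 8.63, 9.44, 9.55 and 9.08. Nr1i3, the xenobiotic receptor CAR, was likewise highest in mice 2 and 3, with 7.45, 8.20, 8.17 and 7.78. Regulators as a list had a median SD of 0.12. Whether any of them contributes to the order of the members was not tested.

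Amino acid transporters were measured for 15 of 15 listed genes, and 14 were above background, all but Slc7a8. Their median SD was 0.11, and 2 of 14 differed by more than 1.5-fold, a share near the 12.9% of all genes above background. The choice of transporters was likewise made with earlier results known. Slc1a2, a glutamate transporter of pericentral hepatocytes, had values of 7.54, 8.46, 8.28 and 7.89. Slc25a44, the mitochondrial carrier of branched-chain amino acids, had values of 8.52, 9.15, 9.10 and 8.79. Both were lowest in mouse 1 and highest in mice 2 and 3, the order of Glud1, Bckdhb and Pcca.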

How the data were processed

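Hepatic RNA of 4 aP2-SREBP-1c mice was measured on 1 Mouse Gene 1.0 ST array each. The values deposited by the authors are log2 expression values per probe set, computed with RMA. This method corrects background, brings the arrays to a common distribution and pools the probes. The deposited values still differed in distribution, with array medians of 5.78, 5.73, 5.70 and 5.70 in mice 1 to 4. The submitters' processing notes name the Affymetrix Expression Console. Which arrays were normalized together, and the genome build, are not given in the sources used here. Arrays give no read depth, and their number limits the precision.

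Of 35556 probe sets, 21789 had 1 symbol in the platform annotation, 1621 had several and 12146 were unnamed here. Only the first kind was used, with the probe set of the highest mean for the 999 genes that had several. The background limit rests on 1212 receptor probe sets. SDs are between mice (n = 4), and no test was made in 1 group. All 38 members were named, together with those pathway genes, regulators and transporters whose range exceeded 1.5-fold, and the 2 pathway genes of the smallest SD. Members and lists were chosen with earlier results of these data known. No pair of arrays shared more than 25 identical values, and 0 value columns remained without a sample. Alternatives were quantile normalization, median-centred arrays, centring of each array within 20 classes of mean expression, the 90th and 99th percentile as the limit, a range of 2-fold, values without a filter, an average over probe sets, and leaving out each mouse. Python 3.11.15 with numpy 2.4.6, pandas 2.3.3 and matplotlib 3.10.9 was used, and the steps were tested on simulated data.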

Additional observations from a re-analysis of the deposited data

Results flagged for a closer look

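In 3 members 1 mouse stood apart from the other 3 by more than Dixon's 95% critical value for 4 samples. In each case mouse 1 was low. Relative to the mean of mice 2 to 4 it differed by -0.198 in Hpd, -0.450 in Afmid and -0.269 in Pccb. Chance flags about 1 in 20 groups, and 705 of 12265 genes above background (5.75%) stood apart in this way, compared with 3 of 34 members (8.82%). The compression of the array of mouse 1, with a median difference of -0.23 in the highest expression class, moved with these values, and its part in them was not tested. After centring within expression classes the differences in mouse 1 were 0.01 for Hpd, -0.20 for Afmid and -0.04 for Pccb.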

How the results depend on the processing

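No paired analysis was possible because all arrays belong to 1 group. Of 238 alternative values for the levels of the members, 238 moved by less than the SD between mice. A level is a mean over the mice. Leaving out 1 mouse cannot move it by a full SD, and rescaling the arrays changes it little, so this count is no measure of robustness. All 56 of the contrasts of the urea cycle and the histidine route with the branched-chain route also moved by less than the SD, among them values that could not move. Of 224 differences of a list in 1 mouse, 27 moved by more and 40 turned their sign. In mouse 1 the values after centring within expression class and after quantile normalization were 0.10 and 0.064 for all members, 0.15 and 0.10 for the urea cycle, 0.30 and 0.25 for histidine (0.12 with median-centred arrays), 0.050 and 0.0018 for the aromatic route, -0.042 and -0.084 for the branched-chain route, 0.10 and 0.066 for glutamate and other steps, 0.18 and 0.15 for cytosolic and -0.034 and -0.075 for mitochondrial members. In mouse 3 the same settings gave -0.079 and -0.064 for the aromatic route, -0.16 and -0.14 for cytosolic members and -0.22 and -0.20 for histidine, and centring within expression class gave -0.051 for all members, -0.12 for the urea cycle and 0.017 for glutamate and other steps. In mouse 2 the aromatic route ranged from -0.068 to 0.10 when another mouse was left out, and it was lowest without mouse 1.

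The median SD after centring within expression class and after quantile normalization was 0.065 and 0.072 for the branched-chain route, 0.12 and 0.12 for cytosolic members and 0.17 and 0.14 for histidine. For the urea cycle it was 0.090 with median-centred arrays and 0.10 after quantile normalization. Leaving out each mouse in turn gave ranges of 0.065 to 0.12 for all members, 0.046 to 0.10 for the aromatic route, 0.064 to 0.17 for the branched-chain route, 0.073 to 0.14 for glutamate and other steps, 0.064 to 0.16 for mitochondrial members and 0.099 to 0.12 for the urea cycle, with the lowest value without mouse 1 in each. The route with the largest median SD was thus the branched-chain route as deposited and histidine after either rescaling.

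Members over 1.5-fold between the mice numbered 1 after centring within expression class (Asl), and 0 under the other settings tried. All genes over this range numbered 138 at 2-fold, 3749 with no filter on low values and 328 to 1290 when each mouse was left out, with 328 without mouse 1. The order counts were added after the data were seen. Members lowest in mouse 1 numbered 8 after centring within expression class and 11 after quantile normalization. Members highest in mice 1 and 4 numbered 18, 16 and, with median-centred arrays, 11, and those highest in mice 2 and 3 numbered 6 and 7. Under all these settings the cause of a change was not tested, and neither was the part of the compression of mouse 1. Signal over background was ample for the members, since even Mccc1, with the smallest margin, exceeded the limit by at least 2.12.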
